A study of Drosophila simulans x Drosophila sechellia and Drosophila simulans x Drosophila mauritiana and Drosophila mauritiana x Drosophila simulans with 63 samples.

Results

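Female and male embryos of the *sim* x *sec* cross, from *D. simulans* mothers and *D. sechellia* fathers, were compared at late stage 5, when the blastoderm has formed cells and before its germ layers fold inward. The 3 embryos labelled XX (replicates 2, 5 and 6) and the 3 labelled XY (replicates 1, 3 and 4) were chosen by cross, stage and sex from the 63 single-embryo libraries of the series. All 6 were F1 hybrids that received an X from a *D. simulans* mother aged 4 to 14 days and were raised at 25 degrees. XX embryos also carried a *D. sechellia* X from the father, whereas XY embryos carried the *D. sechellia* Y and no second X. Parental embryos came from 1 strain of each species, and the *D. simulans* strain carried the *w* mutation. Every embryo was sequenced as poly(A)-selected RNA from the whole animal, so that a change in the number of cells of a type cannot be told apart from a change in RNA per cell. The sex of each embryo had been typed by PCR for Y-linked genes.

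In *Drosophila*, the embryo reads its number of X chromosomes before cellularization. X-linked activators such as *sisA*, *sc*, *upd1* and *run* switch on an early promoter of *Sex lethal* (*Sxl*) in XX embryos, and the Sxl protein then keeps *msl-2* from being translated. In XY embryos, Msl-2 assembles with Msl-1, Msl-3, Mle and Mof into the male-specific lethal complex, which raises transcription of the single X. Before this complex is in place, several early X-linked genes are known in *D. melanogaster* to reach similar levels in both sexes by other means. RNA loaded by the mother is still present at this stage and is the same for sons and daughters when it enters the egg.

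For each gene, the deposited values are the reads assigned to the *D. simulans* and to the *D. sechellia* allele, scaled by the authors for the depth of each embryo. A total is the sum of both alleles from reads mapped to the *D. simulans* genome. Totals were compared on the log2(total + 1) scale with limma as a two-sided test, and a gene was called at a Benjamini-Hochberg adjusted p under 0.05 over all 5886 genes with a mean total of at least 10. Of these genes, 958 lay on the X and 4928 on an autosome of *D. melanogaster*. On this scale, 2 active X copies against 1 without any compensation would give a difference (XX minus XY) of 1, and equal output would give 0. The value of 1 holds only where both copies give equal measured signal and no maternal RNA remains. The labels do not say whether embryos shared a vial or mother, so the p-values measure the spread between these 6 embryos.

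The 6 embryos held between 3132132 and 5457270 assigned reads, with the lowest number in XX replicate 5, and pairs of embryos had rank correlations of 0.980 to 0.993 over the genes tested. XX replicate 5 also stood apart in marker genes. Its summed signal for the maternally loaded genes *stg*, *twe*, *bcd* and *Hsp83* was 2398 against 4027 to 4999.7 in the other 5 embryos, and its sum for the cellularization genes *bnk*, *Sry-alpha* and *slam* was 11086 against 6200.1 to 8240.3. The 8 marker lists covered pole cells, mesoderm, dorsal ectoderm, neuroectoderm, cellularization, maternal clearance, gastrulation and adult male or yolk genes. Each list had 1 to 4 genes tested. No gene found under its listed symbol was called between the sexes, against 4.13% of all genes tested. The dorsal marker *Race* was not found under that name, but it is a synonym of *Ance*, which was called higher in XY embryos. So few genes cannot show that the sexes matched in cell types. In the adult and germline list the signal of *Acp26Aa*, *Yp1* and *Yp2* was 0 in every embryo, while the summed mesoderm signal was 7333 to 7956 in XX and 7241 to 10040.3 in XY embryos.

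The paternal X matched the labels of all 6 embryos. *D. sechellia* alleles made up 20.2%, 19.5% and 23.1% of the X-linked signal in XX replicates 2, 5 and 6. In XY replicates 1, 3 and 4 they made up 0.610%, 0.421% and 0.431%, with 95% Wilson intervals of 0.589% to 0.633%, 0.404% to 0.439% and 0.416% to 0.447% that cover counting error only. The groups did not overlap, and the exact permutation p was 0.1, the smallest that 3 against 3 embryos can give. The share in XY embryos is the background of the paternal allele on the X, measured the same way. XY replicate 1 had such a read in 476 of the X genes against 243 and 265 in the other XY embryos. On the autosomes the paternal share did not separate the sexes, with 20.8% ± 1.49 in XX and 21.5% ± 1.12 in XY embryos (SD, n = 3 each, exact permutation p = 0.6).

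The share of the signal that came from the X did not overlap between the sexes. The X gave 14.8%, 14.9% and 14.9% of the signal of the genes tested in XX replicates 2, 5 and 6, and 12.7%, 13.02% and 12.96% in XY replicates 1, 3 and 4. Genes were also divided by their history in the parental species, using the log2 ratio of the mean signal at stage 5 to that at stage 2, before transcription by the embryo. Mostly zygotic genes had a ratio above 3, mixed genes between 0 and 3, and mainly maternal genes 0 or less. Among mostly zygotic genes the X gave 12.8%, 12.9% and 13.5% of the signal in the XX embryos and 8.59%, 8.82% and 8.91% in the XY embryos. The difference was 4.29 percentage points against 1.96 over all genes, and neither share overlapped between the sexes (exact permutation p = 0.1 for both). In these mostly zygotic genes the paternal allele supplied 42.6% to 43.2% of the X signal in XX embryos. The largest and the third largest of these genes, *bnb* and *DIP1*, had 33.8% and 59.2% of parental *D. sechellia* reads assigned to *D. simulans*. With genes left out for which over 5% of parental reads were misassigned, a filter added after the data were seen, the paternal share was 45.4% to 45.9%. The X then gave 10.1% to 10.8% of the mostly zygotic signal in XX and 7.42% to 7.74% in XY embryos.

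**Figure D1:**
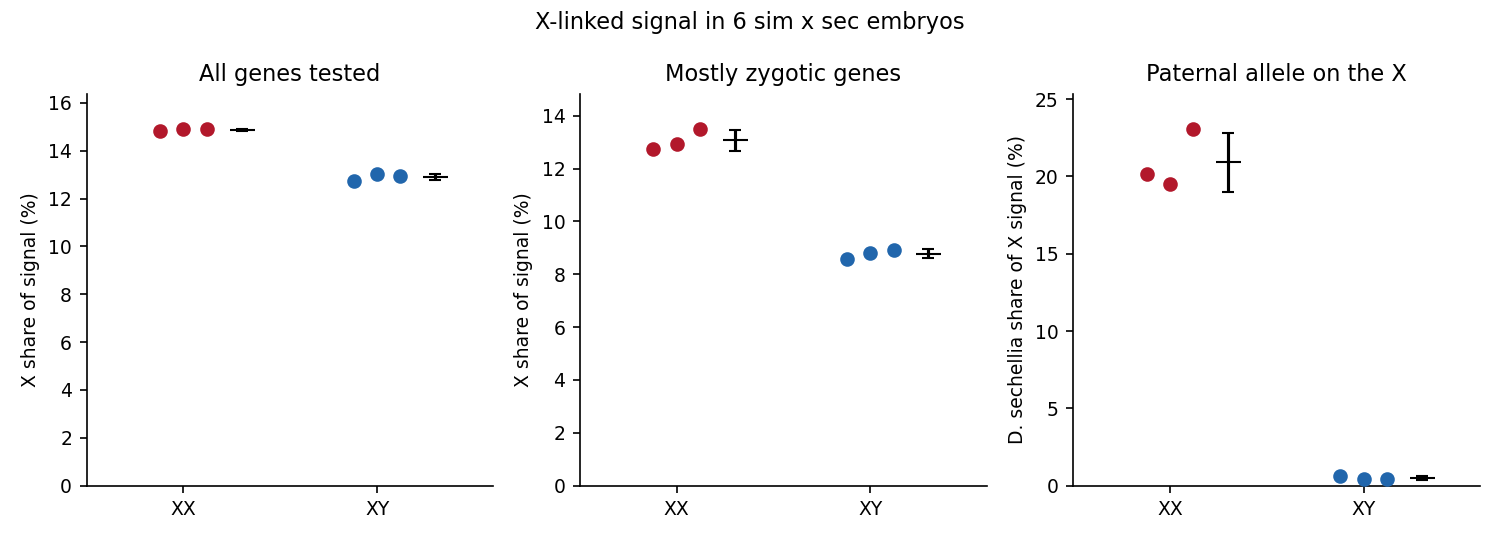
Share of the signal that came from X-linked genes, over all genes tested and over mostly zygotic genes, and share of X-linked signal assigned to the *D. sechellia* allele, all in percent. Each point is 1 embryo and the bar gives the mean and SD of 3. Every XX embryo lies above every XY embryo in all panels, and the paternal share is 0.421% to 0.610% in XY embryos.

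The X-linked genes that passed the test were mostly higher in XX embryos, most of them by a log2 difference below 1. Of the 958 X genes tested, 218 (22.8%) were called higher in XX and 8 (0.835%) higher in XY embryos. On the autosomes, 3 of 4928 genes (0.0609%) were called higher in XX and 14 (0.284%) higher in XY embryos. The 218 genes had a median difference of 0.74 on the log2 scale, with quartiles of 0.62 and 0.91, and 185 of them lay below 1. EdgeR's quasi-likelihood test on the recovered reads called all 218 again, among 261 X genes (27.2%) higher in XX. With reads mapped to the *D. sechellia* genome, 190 of the 209 that could still be tested were called, where 26.3% of X genes were higher in XX. Without XX replicate 5, the embryo that stood apart, 192 X genes were called higher in XX, 13 higher in XY, and 2 and 12 autosomal genes higher in XX and XY. Without XY replicate 1, 133 X genes were called higher in XX, and when the 6 parental stage 5 embryos of the same table, whose labels give no sex, entered the estimate of the spread 19 were. In 446 X genes (46.6%) every XX embryo lay above every XY embryo, and in 36 (3.76%) every XY embryo lay above every XX embryo.

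The median difference over X genes was 0.35 and the median over autosomal genes was -0.08. The autosomal value was below 0 on all 5 autosomal arms, from -0.09 on 3R to -0.05 on chromosome 4. The values were scaled over the whole library, X included. With the autosomal median set equal in all embryos, 298 X genes (31.1%) were called higher in XX and 5 (0.522%) higher in XY, and the autosomal calls turned to 13 (0.264%) higher in XX and 8 (0.162%) higher in XY embryos. Relative to autosomal genes of the same class, the X median was higher by 0.64 for mostly zygotic, 0.29 for mixed and 0.52 for mainly maternal genes. The X medians themselves were 0.52 (76 genes), 0.21 (428 genes) and 0.43 (454 genes). Among autosomal genes of these classes, the *D. sechellia* allele made up a median of 45.8%, 21.9% and 35.3% of the XX signal. A paternal X giving less measured signal than the maternal one would raise the total by less than 1 without any compensation. Its part in the medians was not tested. In the same order, 18, 98 and 102 X genes were called higher in XX, or 23.7%, 22.9% and 22.5% of the genes in each class.

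**Figure D2:**
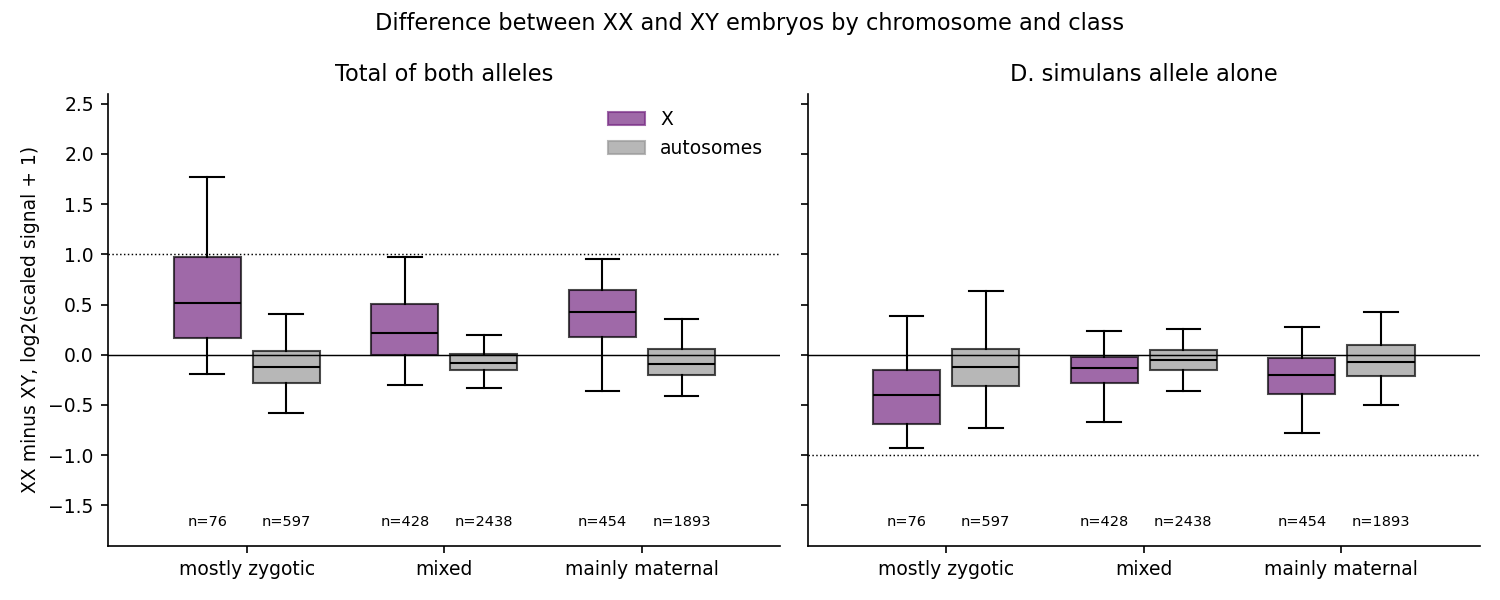
Difference between XX and XY embryos, as XX minus XY on the log2(scaled signal + 1) scale, for the total of both alleles and for the *D. simulans* allele alone, by chromosome and class. Boxes give the median and quartiles over genes and whiskers the 5th and 95th percentiles, with the number of genes under each. The dotted lines mark a doubling from 2 X copies (1) and a doubling of 1 X in XY embryos (-1). The value of 1 assumes 2 copies of equal measured signal and no maternal RNA. The X medians of 0.52, 0.21 and 0.43 for totals lie between equality and doubling.

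The *D. simulans* allele was compared on its own because both sexes carry exactly 1 *D. simulans* X. Here a difference of 0 means equal signal of that allele and -1 a doubled signal in XY embryos. RNA loaded by the *D. simulans* mother counts as this allele and is part of the values of mixed and mainly maternal genes. In XX embryos it also holds misassigned reads of the paternal X, and the scaling covers both X chromosomes. The median over X genes was -0.17 against -0.06 over autosomal genes, and 759 of 958 X genes (79.2%) lay below 0 against 64.6% of autosomal genes. For mostly zygotic X genes the median was -0.40, so that the *D. simulans* X gave 1.32 times as much signal in XY as in XX embryos, against 1.09 times for mostly zygotic autosomal genes. It was -0.13 for mixed and -0.20 for mainly maternal X genes. In limma over the same genes, 26 X genes (2.71%) were called higher in XY and 3 (0.313%) higher in XX embryos. On the autosomes, 5 genes (0.101%) were called higher in XY and 0 (0%) higher in XX embryos. Without XX replicate 2, XY replicate 1 or XY replicate 4, the number of X genes called higher in XY was 8, 7 and 8, and without XX replicate 6 it was 17. For this allele at an unadjusted p under 0.05 in limma, 120 autosomal genes were higher in XX and 252 higher in XY. EdgeR called 1 autosomal gene higher in XX.

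The mostly zygotic X genes did not form a single group. By the 95% interval of the difference in totals, 25 of the 76 genes included equality and not a doubling, 19 included a doubling and not equality, and 14 included both. Another 12 lay wholly between, 5 lay above a doubling and *gt*, which was not called after adjustment, lay below equality. With the autosomal median set equal, added after the data were seen, the same counts were 17, 24, 13, 17, 5 and 0, and the interval of *gt* ran from -0.57 to 0.06. Near equality were *sog*, an inhibitor of Dpp signalling in the ventral ectoderm, *sdt*, which encodes a scaffold of the Crumbs complex at the apical membrane, *ec*, known for its part in cell death in the pupal eye, and *bou*, which acts in septate junctions. Their differences in totals were 0.08, 0.09, -0.07 and -0.08, none of them called, and the 4 intervals excluded a doubling on both scalings. The same genes had called differences of -0.92, -0.73, -0.86 and -0.92 on the *D. simulans* allele. Near a doubling were *tsg*, which encodes a secreted partner of Sog, *CG12730* and *CG1806*, with called differences in totals of 1.06, 1.07 and 1.11 and differences of -0.34, -0.04 and -0.12 on the *D. simulans* allele, none called. The gap junction gene *ogre* at 0.75 and *Atx-1* at 0.64 were called and had intervals wholly between equality and a doubling, from 0.58 to 0.92 and from 0.42 to 0.87. With the autosomal median set equal, the interval of *sdt* (0.02 to 0.34) left out equality and that of *ogre* (0.67 to 1.01) included a doubling.

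**Figure D3:**
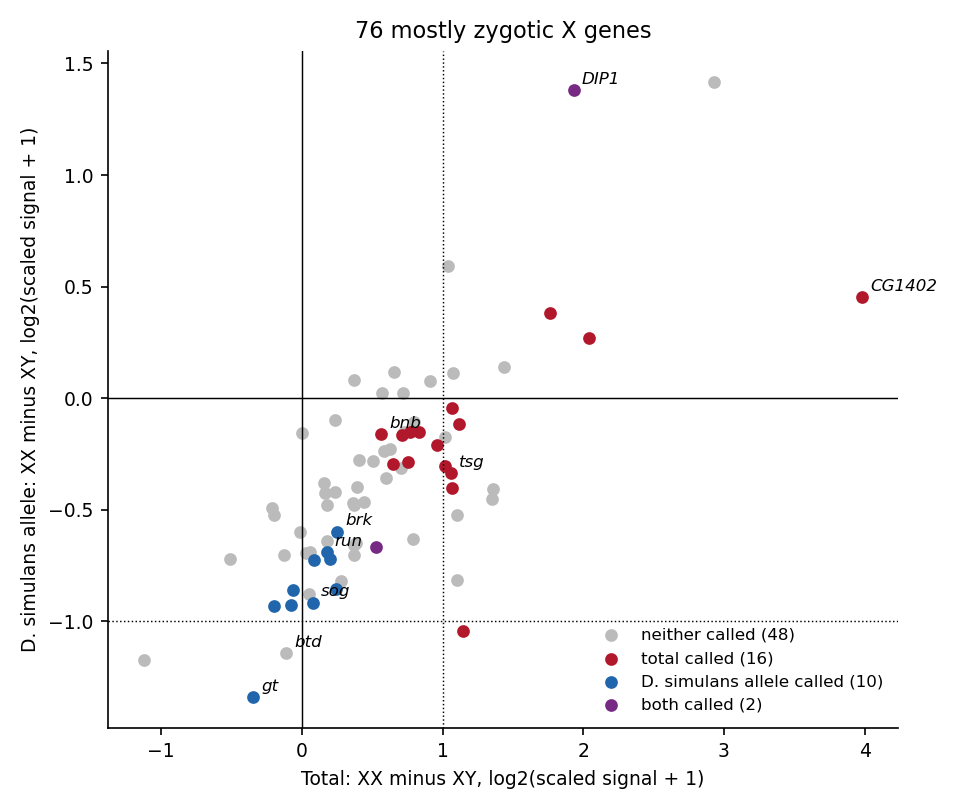
The 76 mostly zygotic X genes, with XX minus XY for the total of both alleles (x axis) and for the *D. simulans* allele (y axis), both on the log2(scaled signal + 1) scale. Colours give the calls of each contrast, and dotted lines mark a doubling. Genes run from *gt* (-0.35 and -1.34) through *run* and *brk* to *tsg* (1.06 and -0.34), and *DIP1* (1.93 and 1.38) and *CG1402* (3.98 and 0.45) lie apart on the right.

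The X-linked genes that set the sex of the embryo differed in size of response, and *Sxl* was the only one of the 4 measured that was called in totals. The position listed for *Sxl* (X, 6572983 to 6573063 of the FlyBase *D. simulans* assembly, release 2) is that of 1 exon entry, as are those that follow. *Sxl* had totals of 4515, 4495 and 4441 in XX replicates 2, 5 and 6, and 1464, 1487 and 1438 in XY replicates 1, 3 and 4. The lowest XX embryo was thus far above the highest XY embryo, and the mean was 3.06-fold higher in XX. The difference was 1.61 ± 0.07 (log2, SE) with an adjusted p of 2.9e-06 in limma. Both alleles took part, since the *D. simulans* allele alone rose from 1461, 1482 and 1435 in XY to 2322, 2342 and 2211 in XX embryos (0.65 ± 0.08, adjusted p = 0.0064 in limma), and the *D. sechellia* allele supplied 48.9% of the XX total. The deposited totals do not separate the early promoter from the later one.

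The activators upstream of *Sxl* showed smaller differences. *sisA*, a bZIP transcription factor that acts as an X-counting signal, had totals of 529.9, 577 and 574 in XX and 400.1, 261 and 457 in XY embryos. The groups did not overlap, as in 46.6% of X genes, but the difference of 0.63 ± 0.18 had an adjusted p of 0.0998 in limma. *sisA* was called with the autosomal median set equal and without XY replicate 4. *sc*, a bHLH factor of the achaete-scute complex, was low, with 20.2, 20.5 and 25.04 in XX and 6.72, 13.6 and 11.7 in XY embryos (1.02 ± 0.41, adjusted p = 0.26). *run*, a Runt-domain factor that also acts as a pair-rule gene, had 1619, 1661 and 1861 in XX and 1526, 1379.7 and 1652 in XY embryos (0.17 ± 0.10, adjusted p = 0.43). The ranges of *run* overlapped, while its *D. simulans* allele was called higher in XY embryos by 1.61-fold (-0.69 ± 0.10, adjusted p = 0.015). The fourth activator, *upd1*, was not analysed here.

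Of the 11 genes tested from a list of 15 further sex determination genes, none was called in limma, and their median of -0.08 equalled that of all autosomal genes (-0.08). The list included *da*, *gro*, *dpn* and *emc*, whose products promote or oppose the X signal, *snf*, *fl(2)d* and *vir*, which act in splicing of *Sxl* RNA, and the later regulators *tra2*, *ix*, *her* and *dsx*. Their differences ran from -0.27 to 0.12. *dsx*, which carries out sexual differentiation in later tissues, was close to the minimum, with 20.2, 24.6 and 29.7 in XX and 21.9, 37.5 and 23.3 in XY embryos.

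Among the dosage compensation genes, *Clamp* and those of the male-specific lethal complex, the direction was the opposite. 3 of the 6 tested, *msl-2*, *msl-3* and *mof*, were called higher in XY embryos, against 0.374% of all genes tested, and none was called higher in XX. *msl-2* (2L, 3325733 to 3325734) had totals of 423, 539 and 573 in XX replicates 2, 5 and 6 and 1431, 1414 and 1429 in XY replicates 1, 3 and 4. Its mean was 2.79-fold higher in XY embryos (-1.49 ± 0.12, adjusted p = 0.00018 in limma). *msl-2* is autosomal, and the paternal allele held the same share in both sexes, at 45.03% in XX and 44.2% in XY embryos. It was mostly zygotic, with parental stage 2 means of 7.6 in *D. simulans* and 15.3 in *D. sechellia*.

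*msl-3* (3L), which encodes a chromodomain subunit that reads methylated histone, had totals of 295, 313 and 285 in XX and 503, 465 and 472 in XY embryos. It was 1.61-fold higher in XY embryos (-0.69 ± 0.10, adjusted p = 0.0047 in limma), and no XX embryo reached the XY range. *mof* (X, 5398607 to 5401466), the histone H4 lysine 16 acetyltransferase of the complex, had totals of 113, 152 and 131 in XX and 239, 221 and 217 in XY embryos, although XY embryos carry only 1 copy. The difference was -0.78 ± 0.15 with an adjusted p of 0.011 in limma, and the call was lost without XX replicate 2 or without XY replicate 1. On the *D. simulans* allele alone, *mof* was 2.17-fold higher in XY embryos (-1.12 ± 0.15, adjusted p = 0.010).

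The other 3 tested dosage compensation genes were not called. *msl-1*, the scaffold of the complex, had 648, 885 and 613 in XX and 925, 898 and 943 in XY embryos (-0.38 ± 0.13, adjusted p = 0.18 in limma), where the XX embryo nearest to the XY range was replicate 5, and without that embryo the gene was called. The RNA helicase gene *mle* and *Clamp*, which encodes a zinc finger protein that binds GA repeats, had differences of -0.05 ± 0.11 and -0.09 ± 0.12. When the autosomal median was set equal, *mle* and *Clamp* stood at 0.04 and 0.00, and the other 4 stayed below 0. The noncoding RNA genes *roX1* and *roX2* were not analysed here.

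**Figure D4:**
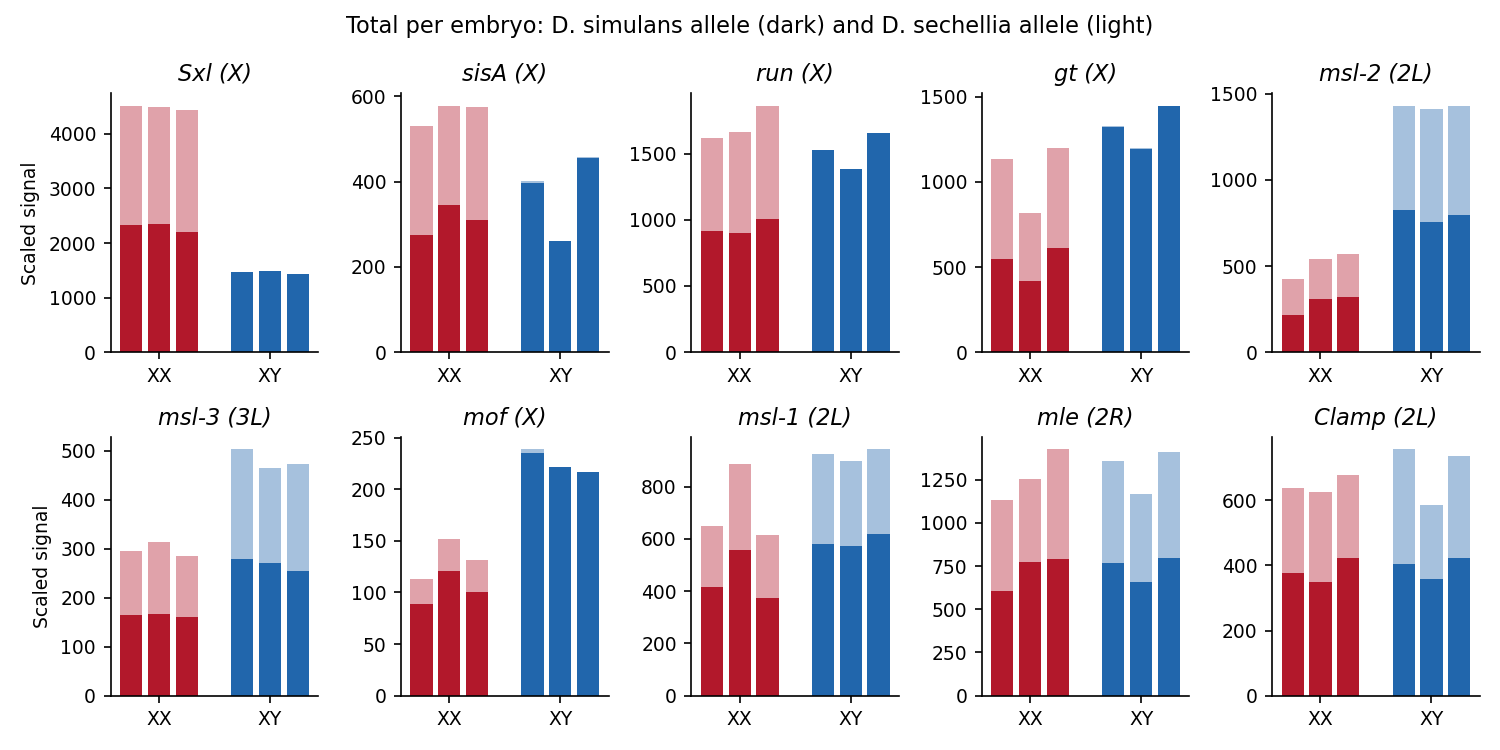
Totals per embryo as scaled signal for genes of X counting (*Sxl*, *sisA*, *run*), for *gt* and for dosage compensation genes. Bars are 3 XX embryos (replicates 2, 5 and 6) and 3 XY embryos (replicates 1, 3 and 4). The dark part of a bar is the *D. simulans* allele and the light part the *D. sechellia* allele, which is nearly missing from X-linked genes in XY embryos. *Sxl* is 3.06-fold higher in XX, and *msl-2*, *msl-3* and *mof* are higher in XY embryos.

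Of 21 listed X-linked genes that act in the patterning of the blastoderm, 17 were tested, and 3 were called higher in XX (*Sxl*, *tsg* and *bnb*) and none higher in XY embryos, in limma, against 22.8% and 0.835% of all X genes. The median was 0.38, against 0.35 over all X genes. On the *D. simulans* allele, 6 of the 17 (*gt*, *oc*, *sog*, *run*, *disco* and *brk*) were called higher in XY and 1, *Sxl*, higher in XX embryos, against 2.71% and 0.313% of all X genes. All 6 were mostly zygotic, a class in which 11 of 76 X genes were called higher in XY on this allele. *gt*, a gap gene that encodes a bZIP repressor, had totals of 1133, 819 and 1200.2 in XX and 1326, 1197 and 1448 in XY embryos. The groups overlapped, and the total did not pass the test (-0.35 ± 0.14, adjusted p = 0.27). Its *D. simulans* allele had 549, 419.8 and 612 in XX and 1323, 1196 and 1446 in XY embryos, which was 2.51-fold higher in XY (-1.34 ± 0.14, adjusted p = 0.0031). In parental *D. sechellia* embryos 7.59% of *gt* reads were assigned to the wrong species.

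The head gap genes *btd* and *oc* showed the influence of XX replicate 5. *btd* had 343, 121 and 351 in XX and 247, 255 and 290.5 in XY embryos, and *oc* had 585, 385 and 684 against 696, 511 and 651. In both, XX replicate 5 was the lowest of the 6 embryos. The other XX embryos lay above all XY embryos for *btd* and within their range for *oc*. *brk*, a repressor of Dpp targets, had 997, 1106 and 1033 in XX and 879, 886 and 873 in XY embryos, which did not overlap but did not pass the test (0.25 ± 0.09, adjusted p = 0.19). *vnd*, which specifies the ventral neuroectoderm, and the proneural gene *l(1)sc* had differences of 0.37 ± 0.12 and 0.38 ± 0.19 (adjusted p of 0.13 and 0.38).

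At the other end of the list, *tsg* had 255, 397 and 254 in XX and 141, 140 and 143 in XY embryos, a 2.14-fold higher mean in XX (1.06 ± 0.18, adjusted p = 0.0072 in limma). *bnb*, a gene of the early nervous system, had the highest signal of the list, with 33319, 32164 and 35859 in XX and 20298, 25107 and 23367 in XY embryos (0.56 ± 0.09, adjusted p = 0.0063). For both genes all XX embryos lay above all XY embryos. For *bnb*, 33.8% of parental *D. sechellia* reads were assigned to *D. simulans*, and it was listed at 0 in the parental *D. simulans* embryos, as was *brk*, so its alleles are not compared. For *ac*, *peb* and *N* every XX embryo lay above every XY embryo, but none was called, with differences of 1.43 ± 0.44, 0.79 ± 0.20 and 0.54 ± 0.15 and adjusted p of 0.12, 0.063 and 0.083. With the autosomal median set equal, *peb*, *N*, *brk* and *vnd* were called.

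Autosomal patterning genes have no copy difference between the sexes. None of the 19 listed was called in limma, against 0.345% of all autosomal genes, and the median difference was -0.07. Among the 19 were the gap genes *Kr*, *kni*, *hb* and *tll*, the pair-rule genes *eve*, *ftz*, *h*, *odd* and *prd* and the mesoderm genes *twi* and *sna*. The 4 autosomal cellularization genes *bnk*, *Sry-alpha*, *slam* and *halo* were not called either, with differences of -0.30 to 0.22. At the share over all autosomal genes, lists of 19 and 4 genes would rarely hold a call.

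The 10 X genes with the largest differences in favour of XX embryos were, in order, *CG6308*, *CG1402*, *Pvf1*, *regucalcin*, *CG3032*, *Rab3-GEF*, *DIP1*, *hiw*, *CG13005* and *Sxl*. *CG6308*, *CG1402* and *Pvf1* passed the minimum of 10 only through the XX embryos, with XY means of 7.60, 0.389 and 9.46. Except for *Sxl*, each of the 10 had a higher mean signal in parental *D. sechellia* than in parental *D. simulans* embryos at stage 5, as had 432 of all 958 X genes. The sex difference in totals is then also a difference between a *D. sechellia* X and none, and these cannot be told apart for totals in this cross. *regucalcin*, which encodes a calcium-binding protein, had 493, 414 and 521 in XX and 38.7, 23.8 and 58.3 in XY embryos (3.61 ± 0.27, adjusted p = 0.00013 in limma). The *D. sechellia* allele made up 92.6% of the XX total, and the *D. simulans* allele had means of 35.4 in XX and 39.7 in XY embryos (-0.09 ± 0.33). The parental means were 27.1 ± 11.4 in *D. simulans* and 1026 ± 409 in *D. sechellia* (SD, n = 3).

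*Pvf1*, a ligand of the PDGF and VEGF receptor related protein, followed the same pattern with 105, 137 and 147 in XX and 10.1, 13.6 and 4.67 in XY embryos (3.73 ± 0.36, adjusted p = 0.00067). Its *D. sechellia* allele made up 96.3% of the XX total. *CG1402* had 15.4, 14.3 and 32.9 in XX embryos and was at 0, 0 and 1.17 in XY embryos, and 97.5% of its XX signal was from *D. sechellia*. Its call was lost without XX replicate 2 or 6, and that of *Rab3-GEF* without XX replicate 6 or XY replicate 1. In *CG3032*, *CG13005*, *Rab3-GEF*, which encodes an exchange factor for a vesicle GTPase, and *hiw*, a ubiquitin ligase of synapse growth, the *D. sechellia* share was 77.1%, 77.6%, 71.6% and 62.04%. None of these 7 genes was called on the *D. simulans* allele.

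*CG6308* and *DIP1* were called on the *D. simulans* allele as well, but their reads were often given to the wrong species. In parental *D. sechellia* embryos, 31.7% of *CG6308* reads and 59.2% of *DIP1* reads were assigned to *D. simulans*. *DIP1*, which encodes a double-stranded RNA binding protein, had 7912, 7226 and 8727 in XX and 2202, 1882 and 2171 in XY embryos (1.93 ± 0.10, adjusted p = 3.7e-06), and *CG6308* had 278, 219 and 264 in XX and 11.8, 1.7 and 9.33 in XY embryos (5.16 ± 0.49, adjusted p = 0.00067). With the filter on misassigned parental reads, *Sxl* was the only X gene called higher in XX on the *D. simulans* allele. Of the 218 X genes called in totals, 203 passed this filter and all 203 were called.

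The same contrast was made in 2 further crosses with other X chromosomes, each with 3 XX and 3 XY embryos that are not shared with *sim* x *sec*. In *mau* x *sim*, the XY embryos carried a *D. mauritiana* X, and in *sec* x *mau* they carried a *D. sechellia* X. *Sxl* was called higher in XX by 1.83 and 2.27 on the log2 scale, and *msl-2* higher in XY embryos (-1.75 and -2.05). *msl-3* was also called in both (-0.76 and -0.87). In *sec* x *mau*, where XY embryos kept the *D. sechellia* X, *regucalcin* had a difference of -0.17, *Rab3-GEF* -0.40, *hiw* 0.06, *CG13005* -0.22, *CG1402* -0.96 and *CG3032* 0.52, none of them called. In *mau* x *sim*, with no *D. sechellia* X in either sex, *regucalcin* had 0.85, *CG3032* 0.38, *Rab3-GEF* 0.59, *hiw* 0.56, *CG13005* 0.42 and *Pvf1* -0.08, none called, while *DIP1* was called at 0.48. Each cross lies in a table that was scaled apart, so the differences between crosses were not tested.

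**Figure D5:**
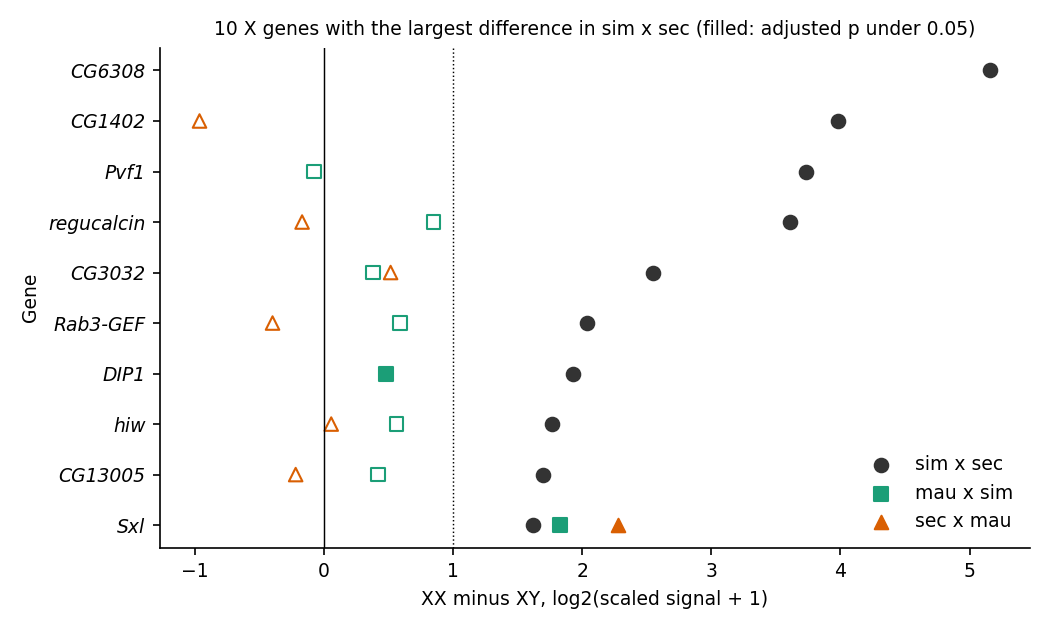
Difference between XX and XY embryos (XX minus XY, log2(scaled signal + 1)) in 3 crosses for the 10 X genes with the largest difference in *sim* x *sec*, with a filled symbol where the adjusted p was under 0.05. The dotted line marks a doubling. The *sim* x *sec* values were used to choose the genes, and of them *Sxl* alone is called in all 3 crosses, while *regucalcin* runs from 3.61 in *sim* x *sec* to -0.17 in *sec* x *mau*.

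Of the genes called here, 206 of the 218 X genes higher in XX could be tested in *mau* x *sim*, where 202 had the same sign and 149 were called, against 34.7% of X genes called higher in XX in that cross. In *sec* x *mau*, 202 could be tested, 180 had the same sign and 23 were called, against 5.42% of X genes. Among all X genes tested, 804 of 932 lay above 0 in *mau* x *sim* and 682 of 848 in *sec* x *mau*. Of the 8 X genes higher in XY embryos, 5 had the same sign in *mau* x *sim* and 3 were called (background 1.61%), with a median of -0.10 against -0.68 here, and *mof* (0.38), *CG9914* (0.35) and *RpL22* (0.03) had the other sign. In *sec* x *mau* 7 had the same sign and 2, *mof* (-1.24) and *CG42240* (-1.66), were called (background 0.825%). Of the 14 autosomal genes higher in XY embryos, 14 had the same sign in *mau* x *sim* and 5 were called, against 2.02% of autosomal genes. In *sec* x *mau* 12 had the same sign and 2 were called, against 0.153%. Among all autosomal genes tested, only 1830 of 4955 lay above 0 in *mau* x *sim* and 1389 of 4583 in *sec* x *mau*. The median over mostly zygotic X genes was 0.47 in *mau* x *sim* (64 genes) and 0.37 in *sec* x *mau* (59 genes). In a further cross, *mau* x *sec*, the paternal share of the X signal ran from 1.09% to 20.8% in the 3 libraries labelled XX and from 0.801% to 21.2% in the 3 labelled XY, so the labels did not match the alleles and the cross was not used. By its labels 0 genes (0%) were called in limma, with 189 at an unadjusted p under 0.05.

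The 8 X genes higher in XY embryos were *CG42240*, *rdgA*, *CG9914*, *mof*, *ssx*, *wds*, *ben* and *RpL22*. Their number ran from 3 without XY replicate 1, through 4 without XX replicate 2 or 6 and 5 without XY replicate 3, to 13 without XX replicate 5. *ssx*, a close relative of *Sxl* that encodes an RNA-binding protein, had totals of 2190, 2441 and 2109 in XX and 3384, 3180 and 3510 in XY embryos (-0.58 ± 0.09, adjusted p = 0.0046 in limma), opposite to *Sxl*. Its *D. simulans* allele was 1.64-fold higher in XY embryos (-0.71 ± 0.09, adjusted p = 0.0077). *CG42240* had 230.5, 371 and 250.4 in XX and 941, 506 and 786 in XY embryos (-1.37 ± 0.23, adjusted p = 0.0073), and *rdgA*, a diacylglycerol kinase gene, had 364, 217 and 249 against 713, 439 and 769 (-1.20 ± 0.23, adjusted p = 0.013). Both were called higher in XY embryos in *mau* x *sim* too, and *rdgA* was listed at 0 in the parental *D. simulans* embryos and lost its call here without XX replicate 6 or XY replicate 1. No XX embryo reached the XY range in any of the 3 genes.

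*CG9914* was 1.98-fold higher in XY embryos (-0.98 ± 0.14, adjusted p = 0.0034). The histone methyltransferase cofactor gene *wds*, the ubiquitin-conjugating enzyme gene *ben* and the ribosomal protein gene *RpL22* were 1.36, 1.32 and 1.27-fold higher, with adjusted p of 0.034, 0.0396 and 0.036 in limma. The *D. sechellia* allele made up 6.42%, 0.147% and 0.682% of their XX totals, so the father's copy contributed little measured signal to these genes. The calls of *wds*, *ben* and *RpL22* were lost when the autosomal median was set equal in all embryos and without any 1 of XX replicates 2 and 6 and XY replicates 1 and 3.

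Of the 14 autosomal genes higher in XY embryos, where the groups of 14.7% of autosomal genes lay apart in this direction, the 10 with the largest differences included *msl-2*, *msl-3* and *Msh6*, a gene of DNA mismatch repair. *Msh6* (3L) had 246, 239.6 and 289 in XX and 484, 409 and 475 in XY embryos (-0.82 ± 0.12, adjusted p = 0.0047 in limma). The lowest XY embryo lay above the highest XX embryo, and the *D. simulans* allele was called too (-0.78). The differences of *Msh6* were -1.07 in *mau* x *sim* and -0.86 in *sec* x *mau*, neither of them called.

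*Ance* (2L), a secreted peptidase made in the dorsal region under Dpp control, had 688, 481 and 695 in XX and 1241, 1005 and 1388 in XY embryos (-0.97 ± 0.16, adjusted p = 0.0071). Its lowest XX value was in replicate 5. The summed signal of the dorsal markers *zen*, *dpp* and *tup* was 1006 to 1141 in XX and 1169 to 1288 in XY embryos, and its part in the difference was not tested. *Ance* was also called in *mau* x *sim* (-0.57) and was not in *sec* x *mau* (-0.11, adjusted p = 0.75). *DNaseII*, a lysosomal nuclease gene, and *Nop17l*, which takes part in assembly of small nucleolar RNPs, were 1.55 and 1.53-fold higher in XY embryos (adjusted p of 0.044 and 0.0196), and *CG8712* was 1.42-fold higher (adjusted p = 0.044). The calls of *DNaseII* and *CG8712* were lost in edgeR and with the autosomal median set equal, that of *CG8712* also in DESeq2 and without any 1 embryo, that of *DNaseII* without any 1 embryo but XX replicate 2, and that of *Nop17l* without XX replicate 2 or 5 or XY replicate 1 or 4. *RpLP0*, a protein of the ribosomal stalk, had 2442, 2742 and 1717 in XX and 3491, 3776 and 3577 in XY embryos (adjusted p = 0.026), but differed by -0.02 in *mau* x *sim*, and its call was lost without XX replicate 2 or any 1 of the XY embryos. *CG31601* had 14.3, 14.3 and 15.6 in XX and 145, 114 and 25.7 in XY embryos, and its call was lost when reads were mapped to *D. sechellia* and without any 1 of the embryos other than XY replicate 4. The number of such calls was 8 without XX replicate 6 and 7 without XY replicate 4. Of the 14 genes, 8 were still called without XX replicate 2 or 5. The number was 7 without XX replicate 6, and 6 without any 1 of the XY embryos.

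The 3 autosomal genes higher in XX embryos were *betaCOP*, *CG6885* and *CG17683*, and without XY replicate 3 the number was 12. *betaCOP*, which encodes a coat protein of Golgi vesicles, had 116, 131 and 114 in XX and 52.1, 59.6 and 67.7 in XY embryos (1.01 ± 0.18, adjusted p = 0.0088 in limma). It was listed on 2L of *D. melanogaster* but on the X of *D. simulans*, and its *D. sechellia* allele made up 42.4% of the XX and 0% of the XY signal. *CG6885* (3L), which was mostly zygotic, had 481, 614 and 587 in XX and 343, 341 and 338 in XY embryos, a 1.65-fold higher mean in XX (0.71 ± 0.12, adjusted p = 0.0066). Both of its alleles were higher in every XX embryo, and it was called in *mau* x *sim* (1.25) and in *sec* x *mau* (1.03) as well. *CG17683* (2R) was 1.34-fold higher in XX (0.42 ± 0.09, adjusted p = 0.028), and its call was lost without any 1 embryo but XX replicate 6.

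The ratio of the alleles on the autosomes was compared between the sexes to see whether the paternal genome took a larger part in either. The test was limma on the log2 ratio of the *D. sechellia* to the *D. simulans* allele. In it, 4 of 4928 genes (0.0812%) were called higher in XX and 0 (0%) higher in XY embryos. At an unadjusted p under 0.05, 81 were higher in XX and 203 higher in XY. The 4 genes were *betaCOP*, *CG11023*, *CG11322* and *His3:CG33812*, and all 4 were placed on the X of the *D. simulans* assembly. The number was 1 without XX replicate 5 and 0 without XX replicate 2 or 6 or XY replicate 3 or 4. With the chromosome taken from that assembly, a choice made after these values were seen, no autosomal gene was called. The totals then gave 216 and 8 X genes and 2 and 14 autosomal genes higher in XX and XY embryos.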

How the data were processed

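Single hybrid embryos had been sequenced as 100 bp paired reads by the authors, who trimmed them with cutadapt 1.7.1, mapped them with TopHat2 2.0.13 and assigned them to a parental allele at variant sites. The deposited signal values are assigned reads per gene and allele, scaled by the authors to an upper quantile within each species pair, and were whole multiples of 1 read's worth (100% within 0.01 of a whole read), so the reads could be recovered. Totals, *D. simulans* alleles and, on autosomes, allele ratios were compared as log2(signal + 1) with limma 3.58.1 in R 4.3.3, with a mean-variance trend, over genes with a mean total of at least 10. The genes around this minimum were *CG30288* (9.98) and *Teh3* (10.03). No column of another sample was found. EdgeR 4.0.16 and DESeq2 1.42.0 on the recovered reads, the other mapping direction, other scalings, minimums and pseudocounts were alternatives, and the tests were checked on simulated data. Shares per embryo were compared by an exact two-sided permutation test with scipy 1.17.1. Named genes were the 10 largest calls per chromosome and direction without overlap between groups, members of the gene lists, and the genes with the largest difference of the *D. simulans* allele. The members, lists and tests were chosen with earlier results of these data known. Genes outside this rule (such as *sdt*, *ec*, *bou*, *ogre*, *Atx-1*, *CG12730*, *CG1806*, *CG7884*, *mud* and the genes of the allele ratio) were named after their values were seen. 1 further gene that this rule names is not reported here.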

Additional observations from a re-analysis of the deposited data

Results flagged for a closer look

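For 4 genes called in *sim* x *sec*, the sexes lay fully apart there and fully apart the other way in another cross. The difference between the crosses was not tested, because each table was scaled apart. In *sim* x *sec* alone, 9.65% of all genes tested lay fully apart with XX higher and 12.9% with XY higher. The share of all genes that lay apart in opposite ways between crosses is not given here. *mof*, the acetyltransferase of the dosage compensation complex, differed by -0.78 (XX minus XY, log2) in *sim* x *sec* and by 0.38 in *mau* x *sim*, where it was not called, while it was called in *sec* x *mau* at -1.24 (limma adjusted p = 0.019). The other 3 genes, all on the X, differed from *sec* x *mau*. *CG14232* differed by 1.02 here and by -0.24 there, and *CG18273* by 0.69 and -0.23, and neither was called in *sec* x *mau*. *CG7326* was called in both crosses, with 0.50 here and -0.88 there (limma adjusted p = 0.034 in *sec* x *mau*). Its call in *sim* x *sec* was lost without any 1 of the 6 embryos and with no minimum.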

How the results depend on the processing

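No paired analysis was possible because the XX embryos carry the numbers 2, 5 and 6 and the XY embryos 1, 3 and 4. Over 52 genes and 955 alternative values no difference changed sign past its test, 103 calls were lost and 21 gained. For totals, the 218 X genes higher in XX became 19 when 6 parental embryos of unlabelled sex shared the spread, 144 of genes whose totals agreed within 1.5-fold between mappings, and 133 to 192 without 1 embryo. The 8 X genes higher in XY became 0 and 5 under those settings, 5 with the autosomal median or autosomal TMM factors set equal, and 3 to 13 without 1 embryo. The 3 autosomal genes higher in XX became 0 with the shared spread, 5 with mapping to *D. sechellia*, 5 in edgeR, 12 in DESeq2, 13 with equal autosomal medians, 10 with autosomal TMM factors and 2 to 12 without 1 embryo. The 14 higher in XY became 0, 26, 9, 8 and 8 (shared spread, mapping, edgeR, median, TMM) and 7 to 13. These are sizes of new lists. Of the 218, 8, 3 and 14 genes themselves, 131 to 176, 3 to 8, 2 to 3 and 6 to 8 were still called without 1 embryo. For the *D. simulans* allele, the 3 X genes higher in XX became 1 with mapping to *D. sechellia* and 1 with genes of over 5% misassigned reads left out, a filter chosen after seeing the data, and 1 to 3 without 1 embryo. The 26 higher in XY became 17 with equal autosomal medians and 7 to 28. On autosomes, 0 higher in XX became 1 in edgeR, 1 with equal medians and 0 to 1, and 5 higher in XY became 3 with equal medians and 1 to 4. The 4 allele ratios became 2 with mapping to *D. sechellia*, 0 by *D. simulans* chromosome, also chosen after seeing the data, and 0 to 4. The mostly zygotic X median was 0.36 when the class began at a log2 ratio of 2. With equal autosomal medians the X medians were 0.30 (mixed) and 0.52 (mainly maternal), and the autosomal ones turned to 0.014 and 0.0034. In *sec* x *mau*, the other mapping direction gave 83 X genes higher in XX. Where no construction of the alternative shows it, the cause was not tested. Genes near a mean total of 10 rest on few reads.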

Other observations

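The X genes called higher in XX beyond a doubling were mostly ones with more signal in the father's species. Of the 33 with a difference above 1, 30 had a higher mean in parental *D. sechellia* than in parental *D. simulans* embryos at stage 5. The same held for 432 of the 958 X genes tested. The *D. sechellia* allele made up a median of 62.04% of the XX signal of the 33 genes. The choice of genes sets this share in part. Where the *D. simulans* allele is not higher in XX, a total beyond a doubling needs a larger *D. sechellia* allele. Of the 218 called X genes, 160 had a *D. simulans* allele below 0 (XX minus XY), a share of 73.4% against 79.2% of all X genes, 3 were called higher in XX and 1, *CG7884*, higher in XY for that allele.

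The 26 X genes whose *D. simulans* allele was higher in XY embryos had a median difference of -0.80 for that allele and of -0.03 for the total. By class, 11 were mostly zygotic, 10 mixed and 5 mainly maternal. Outside the patterning genes they included *mud*, which acts in spindle orientation, *Nek2*, a centrosomal kinase gene, *Rab10*, a vesicle GTPase gene, and the adaptor genes *Dok* and *spri*. In the parental *D. simulans* embryos, 8 mostly zygotic X genes were listed at 0, *brk* and *bnb* among them. For these genes the filter on misassigned reads rested on parental *D. sechellia* reads alone.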
